A study of Mus musculus with 20 samples.

Results

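Upk3b, Upk1b, Msln, Wt1, Nkain4, Rspo1, Lrrn4 and Muc16 are 8 genes known as markers of mesothelium, and they were followed here in a mouse model of breast cancer. They were taken as the rows of the deposited expression table whose gene name equals one of the 8 and which hold values in the breast cancer libraries. All 8 were found among 15465 named genes with such values, and all 8 were among the 14003 genes that passed the filter on low values described below.

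The mesothelium is the single-layered epithelium that lines the pleural, peritoneal and pericardial cavities and covers the organs within them, the lung included. It secretes lubricating fluid and keeps keratins while also expressing genes of mesenchymal origin. Wt1 is active in mesothelial progenitors of the embryo, and Msln and Muc16 encode cell-surface proteins that bind each other and are also made by many carcinomas.

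Bulk tumour tissue was collected from 4 mice of an orthotopic model, labelled with a time of 28 days and a genotype of 4T1 derived, 4T1 being a transplantable mouse mammary carcinoma line. Each mouse gave 1 primary tumour library and 1 lung metastasis library, and the mouse number in the sample titles links them. The labels name no other allele or agent in either group, and they do not give the host strain or age, or how much surrounding organ was taken with a tumour. All 8 tumours therefore derive from 1 cell line, and a library holds the RNA of tumour cells together with that of the host cells of the piece taken. The series also holds 12 libraries of a pancreatic cancer model, which were not used because their values did not follow the gene names in the table.

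Depth was 15447918 to 28995834 reads, with the fewest in lung metastasis 3, and 1 read was worth 0.0337 to 0.0676 normalised counts (gene reads divided by a scaled library size, as deposited). Markers of alveolar type 2 cells, the surfactant-making cells of the lung, summed to 91.5 to 113 normalised counts in the primary tumours and to 5654, 7350, 12676 and 4053 in lung metastases 1 to 4. The 7 measured markers of airway club cells summed to 15401, 2830, 25296 and 3938 in lung metastases 1 to 4. Keratin and other markers of the mammary carcinoma cells summed to 1430 to 2801 in the primary tumours, and lung metastasis 4 had the highest sum of the lung metastases (3152) and lung metastasis 3 the lowest (857). In bulk tissue, fewer cells of a type and less RNA per cell cannot be told apart. Counting intervals and floors below cover counting error only.

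A change is given as the log2 difference of (normalised count + 1) between lung metastases and primary tumours, fitted with limma over all genes tested, and a gene was called at a Benjamini-Hochberg adjusted p under 0.05. This scale understates the change of genes with few reads. By this rule all 8 mesothelial genes were higher in lung metastases, where 7.18% of all genes tested were called higher and 1.96% lower. With no filter on low values the same 8 were called higher, beside 6.9% of 15465 genes. Each of those 15465 genes held at least 46 reads over the 8 libraries, so this fit is not free of selection on level either. All members but Msln reached that level only through the lung metastases. In the primary tumours Nkain4, Rspo1 and Muc16 held 0 reads, Upk3b 1, Lrrn4 15, Wt1 24 and Upk1b 25. In 7 of the 8 the groups did not overlap, as in 10.4% of all genes tested with lung metastases higher. For 7 of the 8, these counts carry no weight of its own, because they passed the filter on low values (at least 1 normalised count in at least 4 of the 8 libraries) through the lung metastases alone: none of the 7 reached 1 in any primary tumour, and each did in all 4 lung metastases. Msln was the exception, with values above 50 in every library.

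The proximal promoters of 4 members were in the RefSeq promoter table (Upk3b, Lrrn4, Rspo1 and Muc16), and they are shown because these genes rose together. Each sequence is the 250 bases before the annotated start in GRCm38.p6, printed 5′ to 3′ on the gene's strand, with matches to searched motifs in capitals. The deposited values were made on mm9, so the positions belong to the RefSeq table and not to the authors' files.

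Upk3b, chr5:136038246-136038495, plus strand: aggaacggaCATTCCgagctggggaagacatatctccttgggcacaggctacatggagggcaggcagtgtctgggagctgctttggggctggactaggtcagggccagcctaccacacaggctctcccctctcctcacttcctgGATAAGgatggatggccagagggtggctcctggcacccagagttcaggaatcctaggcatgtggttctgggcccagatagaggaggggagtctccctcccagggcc

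Lrrn4, chr2:132880863-132881112, minus strand: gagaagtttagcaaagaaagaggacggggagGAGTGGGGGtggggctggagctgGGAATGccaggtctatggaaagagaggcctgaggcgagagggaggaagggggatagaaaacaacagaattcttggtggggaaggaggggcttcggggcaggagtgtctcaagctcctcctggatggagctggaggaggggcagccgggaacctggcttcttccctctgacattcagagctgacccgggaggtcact

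Rspo1, chr4:124986180-124986429, plus strand: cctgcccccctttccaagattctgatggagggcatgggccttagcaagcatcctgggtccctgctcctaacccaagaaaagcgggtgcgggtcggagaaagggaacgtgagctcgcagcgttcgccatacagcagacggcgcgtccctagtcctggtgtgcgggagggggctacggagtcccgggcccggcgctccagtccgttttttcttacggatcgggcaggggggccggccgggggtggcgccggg

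Muc16, chr9:18674604-18674853, minus strand: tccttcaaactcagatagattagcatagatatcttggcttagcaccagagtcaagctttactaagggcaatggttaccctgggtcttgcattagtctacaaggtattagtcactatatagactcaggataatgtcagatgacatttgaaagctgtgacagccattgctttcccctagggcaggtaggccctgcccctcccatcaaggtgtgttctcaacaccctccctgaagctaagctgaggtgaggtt

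These windows did not share a base composition. Rspo1 held 22 CpG dinucleotides at 66.8% G and C, and Muc16 held 0 at 46.4%, although both genes had 0 reads in every primary tumour. Upk3b held 2 CpG at 60.8% and Lrrn4 held 5 at 59.2%, while the median over 32851 promoter windows of the same length was 6 CpG and 52.4%. Motifs were searched on both strands, and no match overlapped another. The GATA motif GATAAG was found in 1 of the 4, Upk3b, from 106 to 101 bases before the start, and in 6.55% of all windows. The TEAD motif GGAATG was found in Lrrn4, 196 to 191 bases before the start, and in Upk3b as its reverse complement CATTCC, 241 to 236 bases before it. It was found in 12.6% of all windows. The EGR and WT1 motif, written GNGTGGGNG, was found in Lrrn4 as GAGTGGGGG, 219 to 211 bases before the start, and in 12.7% of all windows. The TATA motif TATAAA was in 0 of the 4 and in 12.4% of all windows. A match describes these letters alone.

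Among the surface proteins, Upk3b had the highest mean normalised count after Msln in the lung metastases, before any correction for length. Per length it did not differ from Upk1b beyond the larger SD. Upk3b encodes a uroplakin, a membrane protein first known from the bladder lining. Its normalised counts were 0, 0.0394, 0 and 0 in primary tumours 1 to 4, and 10.4, 80.7, 120.0 and 35.6 in lung metastases 1 to 4. The groups did not overlap, and the whole primary group held 1 read against 5156 in the lung metastases. The ratio of pooled levels was 6085, with a 95% counting interval of 1092 to 240391, and the log2 change was 5.48 (SE 0.62, adjusted p = 0.000457 with limma). The lung metastases themselves ranged over 11.5-fold from mouse 1 to mouse 3, the widest range of the 8 genes.

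Upk1b encodes a tetraspanin that pairs with the type 3 uroplakins. It stood at 0.596, 0, 0.0337 and 0.317 normalised counts in primary tumours 1 to 4 and at 8.58, 54.4, 35.1 and 29.3 in lung metastases 1 to 4. Every lung metastasis was above every primary tumour, with lung metastasis 2 highest and 1 lowest. The ratio of means was 135 (31.9 ± 18.9 against 0.237 ± 0.279, SD, n = 4 each), and the log2 change was 4.51 (SE 0.49, adjusted p = 0.000384 with limma).

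Few other genes of the bladder lining could be read beside the uroplakins. Of the urothelial marker list, 5 of 8 genes had values, 3 were tested and 0 were called by limma. Of all genes tested, 7.18% were called higher, so a count over 3 genes cannot show whether such genes changed. Their summed level was 34.0 to 42.4 in primary tumours and 27.9 to 66.0 in lung metastases. Most of it was Ppard, at 30.6 ± 3.31 and 40.1 ± 14.3. Krt20 (1.47 ± 1.71 and 0.263 ± 0.501) and Trp63 (2.70 ± 2.63 and 0.470 ± 0.365) did not pass the filter. The bladder uroplakins Upk2 and Upk3a were not analysed here. Upk1a, the relative of Upk1b, stood at 1.17 ± 1.19 in primary tumours and 1.64 ± 1.36 in lung metastases (adjusted p = 0.705 with limma).

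Lrrn4 encodes a leucine-rich repeat membrane protein. Its normalised counts were 0.596, 0, 0 and 0 in primary tumours 1 to 4 and 7.39, 47.0, 42.5 and 15.4 in lung metastases 1 to 4. All 15 of its reads in the primary group came from the tumour of mouse 1, while the lung metastases held 2504. The ratio of means was 188 and the log2 change 4.37 (SE 0.53, adjusted p = 0.00068 with limma). Its relative Lrrn3 was also called, at 4.43 ± 0.339 against 0.416 ± 0.504 (adjusted p = 0.00364 with limma), and lost that call with edgeR (0.121).

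Nkain4 encodes a small membrane protein that interacts with a subunit of the sodium-potassium pump. It had 0 reads in all 4 primary tumours and 9.81, 15.6, 25.8 and 14.2 normalised counts in lung metastases 1 to 4. With a floor of 3 reads per primary library, it was at least 147-fold higher, and its log2 change was 4.04 (SE 0.32, adjusted p = 6.48e-05 with limma). It was the most even of the 8 across lung metastases after Msln, with a 2.63-fold range. An antisense gene, Gm14341, covers 55 of its 1239 exon bases (4.44%), and the kit is not described as marking strand, so reads in that stretch cannot be assigned. Its relative Nkain1 went the other way in value without passing the test, at 27.8 ± 4.80 in primary tumours and 16.9 ± 5.79 in lung metastases (adjusted p = 0.134 with limma).

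Muc16, the very large membrane mucin known in humans as the antigen CA125, had 0 reads in all primary tumours and 3.48, 7.97, 10.7 and 5.04 normalised counts in lung metastases 1 to 4. It was the lowest of the 8 in the lung metastases, with 591 reads in all, and it was at least 61.3-fold higher there (log2 change 2.87, SE 0.35, adjusted p = 0.00068 with limma). Of its mucin relatives with values, Muc1 and Muc20 were called. Muc4 (0 reads in primary tumours, 1.98 ± 1.82 in lung metastases) and Muc13 (0.00881 ± 0.0176 and 1.35 ± 1.45) did not pass the filter. Muc1, a membrane mucin of many epithelia, rose from 3.29 ± 2.99 to 68.6 ± 34.8 (adjusted p = 0.000376 with limma). Muc20 had 0 reads in primary tumours and 1.74 ± 0.133 in lung metastases, at least 15.7-fold higher (adjusted p = 0.00777 with limma). Muc20 passed the filter through the lung metastases alone, so its call carries no weight of its own.

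Wt1 encodes a zinc-finger transcription factor of mesothelium, kidney podocytes and gonads. It stood at 0.517, 0.158, 0 and 0.247 normalised counts in primary tumours 1 to 4 and at 4.70, 24.0, 14.1 and 11.3 in lung metastases 1 to 4. The groups did not overlap, and the order of the lung metastases matched that of Upk1b and Lrrn4. The ratio of means was 58.7 and the log2 change 3.39 (SE 0.43, adjusted p = 0.000842 with limma). Egr1, a zinc-finger relative of Wt1, rose from 22.7 ± 11.8 to 63.2 ± 24.0 (adjusted p = 0.0269 with limma), a call lost without primary tumour 1, 3 or 4 or lung metastasis 1, 2 or 4 (0.0509 to 0.0915).

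Of 10 genes linked to Wt1 by textbook knowledge, 9 were tested, 3 were called higher and 1 lower, with a median log2 change of 0.89 against -0.06 over all genes tested. Aldh1a2, a retinoic acid synthesising enzyme of embryonic mesothelium, rose from 0.642 ± 0.898 to 50.1 ± 25.9 (adjusted p = 0.000127 with limma). Tcf21, a transcription factor of mesothelial derivatives, rose from 1 read over the primary tumours to 21.5 ± 11.1 (adjusted p = 7.29e-05 with limma). Tcf21 passed the filter through the lung metastases alone, so its call carries no weight of its own. Both genes are also counted in the second mesothelial list below. Podxl, a sialomucin of podocytes, mesothelium and endothelium, rose from 52.9 ± 23.0 to 196 ± 123 (adjusted p = 0.0141 with limma), a call lost without primary tumour 1 (0.052) or 4 (0.0556). Spry1, an inhibitor of receptor tyrosine kinase signalling, fell from 263 ± 67.4 to 89.4 ± 13.8 (adjusted p = 0.00119 with limma). The median of the podocyte and gonad list was 0.62, with 2 of 5 tested genes called higher, Podxl again among them.

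Rspo1 encodes the secreted ligand R-spondin 1, which binds Lgr receptors and strengthens Wnt signalling. It had 0 reads in all primary tumours and 6.17, 14.9, 18.3 and 5.80 normalised counts in lung metastases 1 to 4. The lung metastases were higher by a factor of at least 102 (log2 change 3.47, SE 0.39, adjusted p = 0.000457 with limma), and it was the only one of the 8 that was lowest in lung metastasis 4. Its relative Rspo3 stood at 5.73 ± 3.90 in primary tumours and 3.67 ± 1.31 in lung metastases (adjusted p = 0.621).

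Most genes of the R-spondin pathway were not called with it. Of 14 receptors, ligases and Wnt target genes listed, 10 were tested, 2 were called higher and 0 lower, with a median log2 change of 0.18. The receptors Lgr4 (adjusted p = 0.592) and Lgr6 (0.951) did not pass limma's test, nor did the Wnt inhibitor Apcdd1 (0.2) or the ubiquitin ligases Rnf43 (0.225) and Znrf3 (0.62) that remove Wnt receptors. The receptor Lgr5 did not pass the filter and was not tested. It stood at 0.449 ± 0.314 in primary tumours and 2.21 ± 1.99 in lung metastases. Both called genes are Wnt targets and feedback inhibitors: Nkd1 rose from 0.907 ± 0.374 to 48.0 ± 39.6 (adjusted p = 0.000366 with limma) and Axin2 from 1.40 ± 0.352 to 9.71 ± 6.34 (adjusted p = 0.0115). Across lung metastases the list's mean log2 level ran in the order 3, 1, 2 and 4. Rspo1 itself ran in the order 3, 2, 1 and 4, with the same highest and lowest library as the list. The mean log2 level of the 8 mesothelial genes ran 2, 3, 4 and 1.

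Msln differed from the other 7 in being present in the primary tumours. It encodes mesothelin, a membrane-anchored protein that binds Muc16. Its normalised counts were 107, 54.8, 143 and 75.6 in primary tumours 1 to 4 and 134, 284, 178 and 327 in lung metastases 1 to 4. The groups overlapped, because lung metastasis 1 lay below primary tumour 3. Within a mouse the lung metastasis was higher in 4 of 4, by 1.26-, 5.17-, 1.25- and 4.32-fold in mice 1 to 4, and the log2 change was 1.27 (SE 0.34, adjusted p = 0.0429 with limma).

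The call for Msln did not hold under every setting. The adjusted p was 0.0854 with the mouse as a block, 0.057 with edgeR on the recovered reads, and 0.0502 with a pseudocount of 5. It was 0.082, 0.103 and 0.134 without primary tumour 1, 2 or 4 and 0.11 and 0.08 without lung metastasis 2 or 4, and it ran from 0.00449 (DESeq2) to 0.134 over all 15 alternatives. The direction was the same in each, with a log2 change of 1.04 to 1.50.

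**Figure D1:**
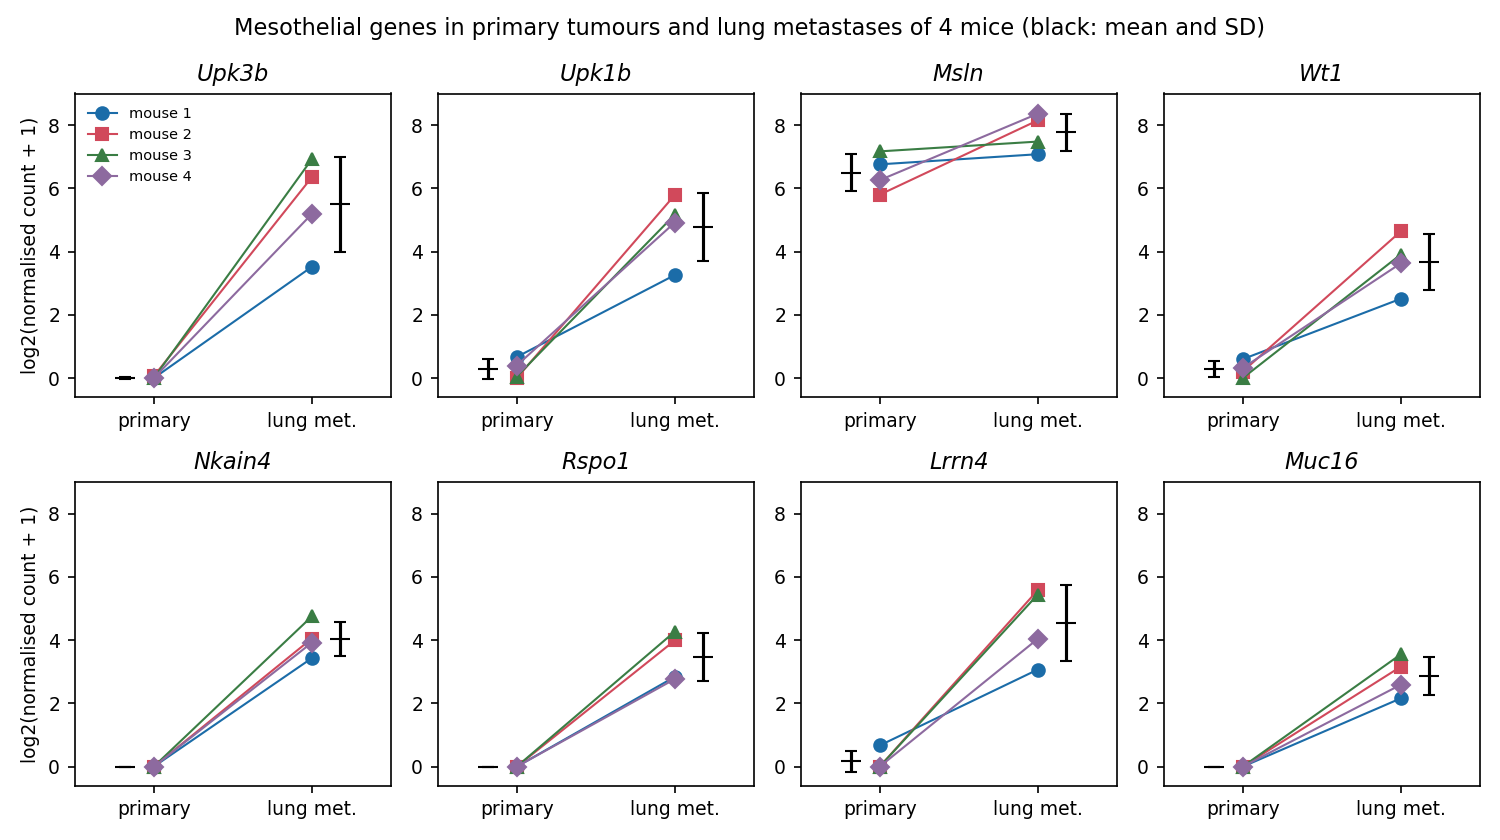
Level of each of the 8 mesothelial genes as log2(normalised count + 1), in the primary tumour and the lung metastasis of each of 4 mice (lines join the samples of 1 mouse, black marks give mean and SD). Every line rises, 7 genes start at or near 0, and Msln starts at 54.8 to 143 normalised counts.

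Msln also differed from the other 7 in which libraries held it. It made up 98.4% of the summed level of the 8 genes in primary tumour 1 and at least 99.3% in the others, whereas its share was 72.7%, 53.7%, 40.0% and 73.7% in lung metastases 1 to 4. In the primary tumours Msln ran highest to lowest over mice 3, 1, 4 and 2, and in the lung metastases over mice 4, 2, 3 and 1. Lung metastasis 4, where Msln was highest, ranked below metastases 2 and 3 for each of the other 7. It also held the most of the carcinoma markers, which include Krt7, Krt8 and Krt18, keratins that are also listed for mesothelium below. The sums of these markers were 1507, 1549, 857 and 3152 in lung metastases 1 to 4. In primary tumours 1 to 4 those sums were 2801, 1430, 2292 and 2528, which is not the order of Msln, and the part of tumour cells in the Msln level was not tested.

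The other 7 genes summed to 1.71, 0.197, 0.0337 and 0.564 normalised counts in primary tumours 1 to 4. They summed to 50.6, 245, 266 and 117 in lung metastases 1 to 4. Every lung metastasis was thus far above every primary tumour, and lung metastasis 1 was the lowest of its group. In reads, the primary tumours held 65 of these 7 genes and the lung metastases 14875. The tumour of mouse 1 gave 43 of the 65, from Upk1b, Lrrn4 and Wt1. The fat gene Adipoq, named after its values were seen, was highest in the same library at 12.99 normalised counts, and was 0, 4.01 and 0.282 in primary tumours 2 to 4 and 0 in every lung metastasis.

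**Figure D2:**
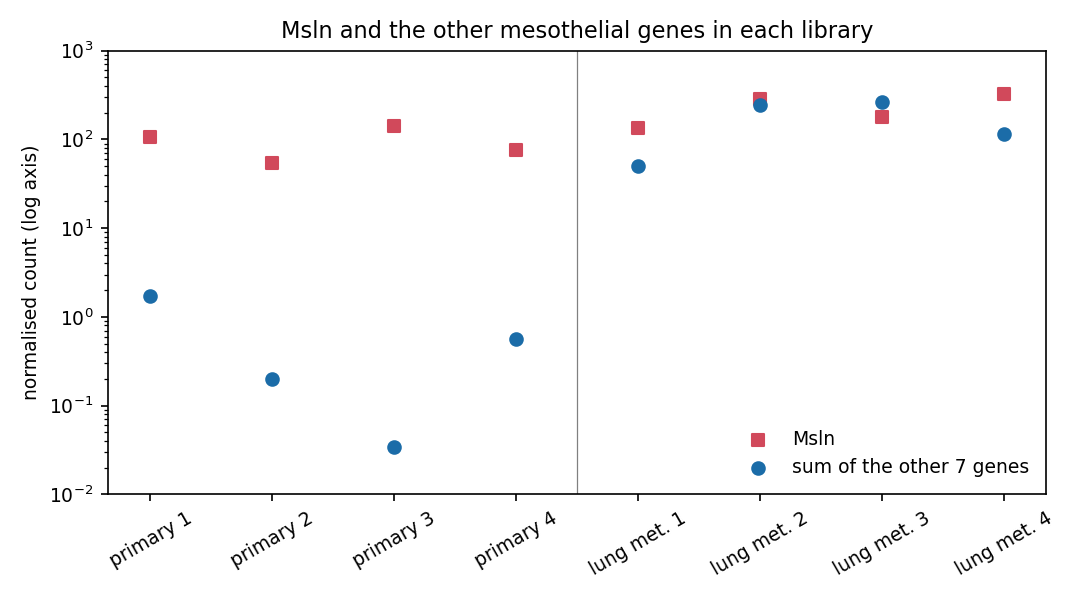
Normalised count (log axis) of Msln and of the sum of the other 7 mesothelial genes in each of the 8 libraries. Msln lies between 54.8 and 327 throughout, while the other 7 sum to at most 1.71 in primary tumours and at least 50.6 in lung metastases.

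Levels can be compared between genes only per length, so normalised counts were divided by the exon length in kilobases (GENCODE M21, all exons of a gene merged). On that scale, the mean level in lung metastases was 75.3 for Msln, 17.5 for Upk3b, 15.2 for Upk1b, 13.2 for Nkain4, 7.56 for Lrrn4, 5.82 for Rspo1, 2.18 for Wt1 and 0.258 for Muc16. Upk3b and Upk1b, Upk1b and Nkain4, and Lrrn4 and Rspo1 did not differ beyond the larger of their SDs. For Muc16 the length of 26350 exon bases is that of the gene record with its symbol, since its identifier in the table had no match, so its value per kilobase is uncertain. In primary tumours Msln stood at 31.0 per kilobase.

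The mesothelial genes ordered the 4 lung metastases in another way than the alveolar genes did. Of the 8 mesothelial genes, 7 were lowest in lung metastasis 1, against 15.2% of the 1005 genes called higher and 13.2% of all genes tested. The highest level was in lung metastasis 3 for 4 genes, in 2 for 3 and in 4 for Msln, whereas 83.9% of the genes called higher were highest in lung metastasis 3. All 8 alveolar type 2 genes were highest in lung metastasis 3 and lowest in 4. Of the 8 alveolar type 1 genes, 7 were highest in 3 and 6 lowest in 4. Genes within a library are not independent, and these are counts over 4 mice with no test.

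Set against the alveolar type 2 sum, the 7 genes other than Msln came to 8.94, 33.3, 21.0 and 28.8 per 1000 in lung metastases 1 to 4. Set against the alveolar type 1 sum, they came to 38.1, 142, 82.4 and 105 per 1000. Lung metastasis 1 was lowest and 2 highest by either measure. The airway markers followed another order, with sums highest in 3 and 1. The part of lung tissue in the level of the mesothelial genes was not tested.

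**Figure D3:**
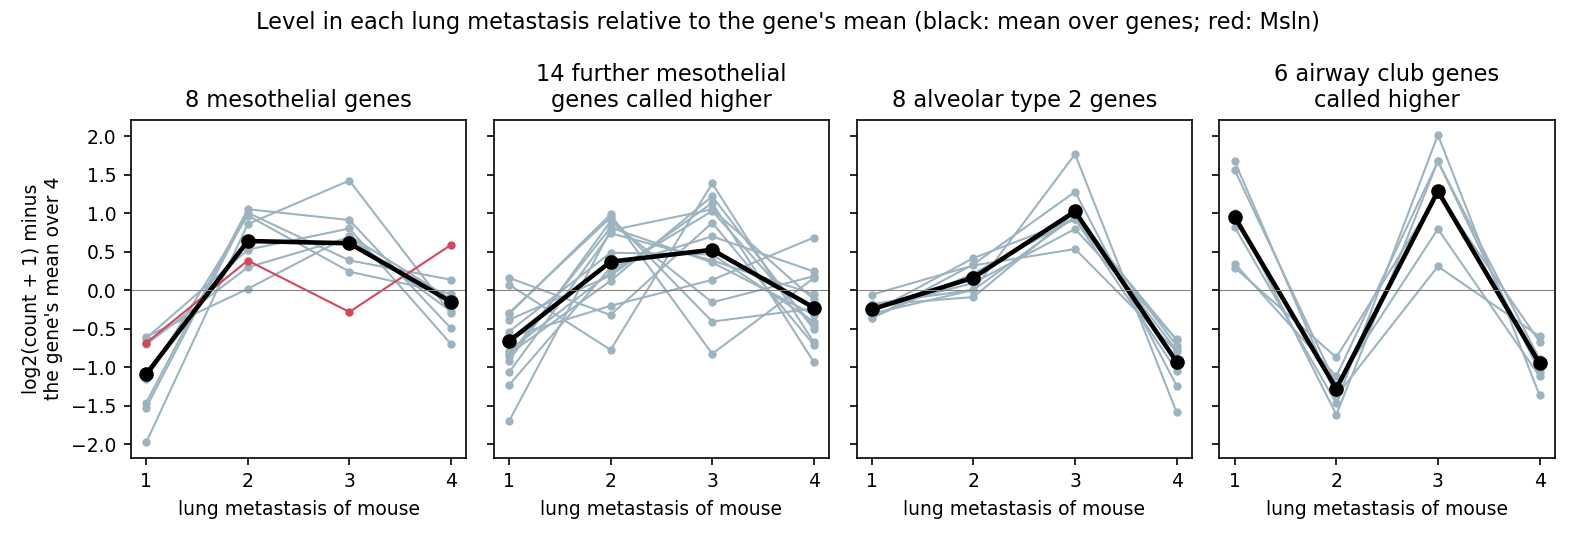
Level in each lung metastasis as log2(normalised count + 1) minus the gene's own mean over the 4, for gene lists named above each panel (thin lines: genes, black: mean over genes, red: Msln). The mesothelial genes are lowest in lung metastasis 1, and the alveolar type 2 genes are highest in 3 and lowest in 4.

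A second list of 24 genes known from mesothelium gave 23 tested genes, with a median log2 change of 2.52. Of these, 14 were called higher and 0 lower, where 7.18% and 1.96% of all genes tested were. Some of the 14, Gpm6a, Tcf21 and Pkhd1l1 among them, reached 1 in no primary tumour and passed the filter through the lung metastases alone. The calls of such genes carry no weight of their own. Gpm6a, a neuronal and mesothelial membrane glycoprotein, had the smallest p: its normalised counts were 0, 0.631, 0 and 0.0352 in primary tumours 1 to 4 and 30.3, 98.1, 71.4 and 44.2 in lung metastases 1 to 4. Its log2 change was 5.63 (adjusted p = 2.3e-05 with limma), and its order over lung metastases was that of Upk1b, Lrrn4 and Wt1. Efemp1, the matrix protein fibulin 3, rose from 2.16 ± 1.36 to 47.3 ± 17.7 (adjusted p = 0.000168 with limma). Krt19, a keratin of simple epithelia, rose from 14.1 ± 5.72 to 123 ± 48.0 (adjusted p = 0.000337 with limma). Pkhd1l1 had 0 reads in primary tumours and 36.8 ± 23.9 in lung metastases, at least 331-fold higher (adjusted p = 0.000374 with limma). Of the 14 called genes, 9 were lowest in lung metastasis 1, as were 7 of the 8 members.

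The 9 genes of this list that were not called were Bnc1, Prg4, Itln1, Gata4, Tbx18, Lrrn4cl, Krt7, Krt8 and Krt18. Only the keratins among them are also in the list of carcinoma markers. Calb2, the listed gene that was not tested, had no values in these libraries. Bnc1, a zinc-finger factor of mesothelium and keratinocytes, stood at 17.7 ± 5.09 in primary tumours and 23.9 ± 11.0 in lung metastases (adjusted p = 0.611 with limma). Krt8 stood at 951 ± 326 and 736 ± 520 (adjusted p = 0.519) and Krt18 at 918 ± 260.3 and 624 ± 402 (0.367).

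**Figure D4:**
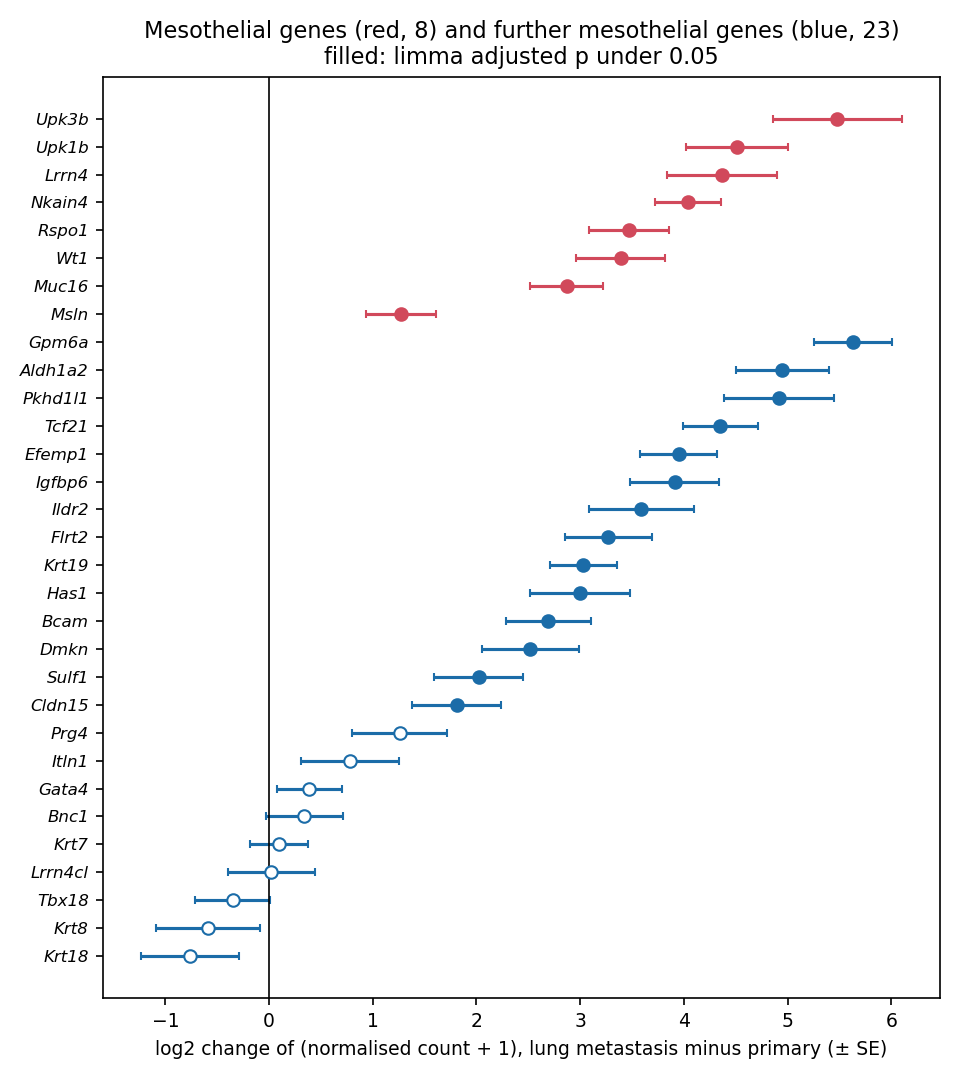
Log2 change of (normalised count + 1), lung metastasis minus primary tumour, with its SE, for the 8 mesothelial genes (red) and 23 further mesothelial genes (blue), filled where the limma adjusted p was under 0.05. All 8 red points and 14 of 23 blue points are filled, and Msln, at 1.27, is the lowest of the red points.

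Cells that neighbour the mesothelium were read from 2 more lists. Macrophages of the pleural and peritoneal cavities depend on Gata6. In their list 3 of 8 genes were called higher, where 7.18% of all genes tested were, with a median log2 change of 0.93. Gata6 itself rose from 0.222 ± 0.393 to 17.0 ± 7.50 (adjusted p = 0.000191 with limma), and it is also made by lung epithelium. Its highest primary tumour value was 0.809. Gata6 thus passed the filter through the lung metastases alone, and its call carries no weight of its own. Lyve1, a hyaluronan receptor, rose from 8.66 ± 8.35 to 106 ± 89.1 (adjusted p = 0.00669 with limma) and Icam2, an adhesion molecule, from 7.23 ± 5.40 to 41.4 ± 26.8 (0.0137). Lyve1 is also a lymphatic marker and Icam2 is also made by endothelium. Of the genes tested, 4 of 8 endothelial and 2 of 4 lymphatic ones were called higher. Those 2 lymphatic genes were Lyve1 itself and a marker shared with the alveolar type 1 list. The endothelial sum was highest in lung metastasis 3, as were Lyve1 and Icam2. The lymphatic sum was also highest there, but it contains Lyve1, which gave 238 of its 366 normalised counts in that library. The part of these vessels was not tested. Timd4 (adjusted p = 0.617) and F5 (0.352), markers of resident cavity macrophages, did not pass. Fn1, the matrix protein fibronectin, which many other cells make, was the highest member of the list in every library and stood at 4743 ± 1154 in primary tumours and 2070 ± 1155 in lung metastases (adjusted p = 0.114 with limma, 0.0289 with DESeq2). The mean log2 level of the list ran the other way, from 3.34 to 4.22 in primary tumours and from 4.61 to 5.86 in lung metastases, without overlap. Genes of submesothelial and adventitial fibroblasts, the connective tissue cells under the pleura and around vessels, were called higher in 6 of 10 and lower in 1. Their median log2 change was 2.74. Tcf21, already counted in the second mesothelial list and among the genes linked to Wt1, is among those 6. Clec3b, a plasminogen-binding lectin, rose from 0.758 ± 0.504 to 51.5 ± 20.3 (adjusted p = 3.37e-05 with limma), and Dpp4, a surface peptidase, from 0.904 ± 0.707 to 30.8 ± 16.7 (adjusted p = 0.000374). Ly6c1, also a marker of endothelium, rose from 7.00 ± 6.11 to 190 ± 176 (adjusted p = 0.000949 with limma). Col15a1, a basement membrane collagen, fell from 49.7 ± 7.31 to 13.4 ± 5.09 (adjusted p = 0.00281 with limma). The order of the list's summed level over lung metastases was 3, 2, 1 and 4, that of the alveolar type 2 genes.

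The genes whose pattern was nearest to the mean of the 8 were found by the root-mean-square difference of mean-centred log2 profiles over all 8 libraries, where the median over genes was 1.963. The nearest 6 outside the members were Gpr133 (0.237), Slc39a8 (0.241), Podn (0.256), Egfl6 (0.29), Sfta2 (0.386) and Gata6 (0.397). Gpr133, an adhesion G protein-coupled receptor, stood at 0.887 ± 0.211 in primary tumours and 25.7 ± 11.7 in lung metastases. Podn, a leucine-rich repeat matrix protein, stood at 0.921 ± 0.230 and 27.7 ± 19.2, and Slc39a8, a zinc and manganese importer, at 6.83 ± 0.853 and 125 ± 78.5. Egfl6, a secreted matrix protein, had 1 read in primary tumours, and Sfta2, a lung epithelial secreted protein, had 0. By the same measure Wt1 was nearest of the members (0.257). Upk3b (1.008) and Msln (1.318) were farthest, Upk3b by its larger rise and Msln by its smaller one. Among all genes tested Upk3b ranked 416 and Msln 937, so many genes outside the members lay nearer than either. The mean holds the members' own profiles, so the nearness of a member is in part its own contribution.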

How the data were processed

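The 8 breast cancer libraries of bulk tumour RNA (4 primary tumours, 4 lung metastases) were grouped by the cell type label, and the mouse number is in the titles. A TruSeq kit was used for library preparation, per the labels' protocols. The build was mm9, per the submitters' processing notes. Not given in the sources used here are the aligner, the counter and the gene annotation. The deposited values are a signal, gene reads over a scaled library size; column totals differed, so they are not the plain CPM that the design assumed. All values were whole multiples of 1 read within 0.05 reads (100% of values), which gave the recovered reads. The table has 37583 rows. The values of the 12 pancreatic libraries did not follow its gene names (Spearman's rho of 0.102 with the breast cancer means, across rows, which are not independent replicates), and 22117 rows had none, so those libraries were not analysed here.

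The 14003 genes that reached 1 in 4 or more of the 8 libraries were tested with limma 3.58.1 (R 4.3.3) with an intensity trend on log2(value + 1), with group means only and Benjamini-Hochberg adjustment over all genes at 0.05. All adjusted p-values are from limma unless another tool is named. The test was tried on simulated data first. Alternatives were pseudocounts of 0.1 and 5, no filter, median-ratio scaling, the mouse as a block, edgeR 4.0.16 and DESeq2 1.42.0 on recovered reads, and each library left out with the same 14003 genes kept. Because the titles name the mouse, its libraries are paired; residuals of the same mouse correlated by 0.096, -0.151, 0.035 and 0.007 for mice 1 to 4. Where a group had 0 reads, folds used a floor of 3 reads per library. Values are mean ± SD over 4 mice.

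The members and all gene lists were chosen with earlier results of these data known, so no list was given a test. Named were the members, up to 4 tested genes of each list described with the smallest p, markers read against a member, and the 6 genes nearest the members. Other lists were read for context. Called higher, of those tested, were 7 of 8 alveolar type 2, 7 of 8 alveolar type 1, 6 of 7 club, 2 of 4 ciliated, 4 of 8 endothelial, 2 of 4 lymphatic, 2 of 8 smooth muscle, 1 of 3 pulmonary vein muscle, 0 of 5 adipocyte, 0 of 3 skeletal muscle and 0 of 8 mammary carcinoma genes. Of 25 relatives in the members' protein families, 10 were tested and 4 called higher. Promoters were taken from the RefSeq table of GRCm38.p6, and exon lengths from GENCODE M21 by Ensembl identifier, or by symbol for Muc16.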

Additional observations from a re-analysis of the deposited data

Results flagged for a closer look

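Each member was looked at in each group of 4 for a sample far from the other 3, which makes 16 groups. In 2 of them 1 library stood apart, and both are in primary tumours where the other 3 libraries had 0 reads. Upk3b stood at 0.0394 normalised counts in primary tumour 2, which is 1 read. Lrrn4 stood at 0.596 in primary tumour 1, which is 15 reads, in the library that also held the most reads of Upk1b and Wt1 of its group. Among continuous values chance meets this criterion in about 1 in 20 groups. That rate does not apply here, because with 3 libraries at 0 any single read meets it. In 3 of the 16 groups all libraries were at 0 and it could not be met. Neither value reaches the lowest lung metastasis, which held 10.4 normalised counts of Upk3b and 7.39 of Lrrn4.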

How the results depend on the processing

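All 8 members kept their direction under all 15 alternatives, and 7 kept their call in each (105 of 105, with a highest adjusted p of 0.00726). Those 7 are the members that passed the filter through the lung metastases alone, so their kept calls carry no weight of their own. Msln lost its call in 8, so that 7 or 8 members were called. With the mouse as a block, the paired analysis called 7 members, 936 genes higher and 176 lower, where the fit without the block called 1005 and 274. DESeq2 on recovered reads called 1468 higher and 517 lower, and edgeR 843 and 207. Leaving out 1 library gave 627 to 1237 genes higher and 84 to 431 lower; the lowest counts of both came without primary tumour 4. The further mesothelial genes called numbered 13 to 15. Lgr6, which was not called, turned from a log2 change of 0.03 to -0.03 without primary tumour 2 or 4, to -0.045 without lung metastasis 1 and to -0.082 without lung metastasis 3, and was 0.14 without lung metastasis 4. Of 26 other named genes that were called, 23 kept their side of the threshold and Egr1, Lrrn3 and Podxl lost it somewhere. With 4 mice a group and 3 members at 0 reads in primary tumours, fold sizes of those genes are lower bounds. The cause of these shifts was not tested.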
